A study of Rattus norvegicus with 18 samples.

Results

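Dorsal root ganglia (DRGs) house the sensory neurons that serve the limb, and the transcripts described here are those of the ion channels and transmitter-gated receptors measured in them. Members were the transcripts whose symbol began with the stem of a channel family (potassium, sodium, calcium and HCN channels, TRP channels, P2X, ASIC and Piezo channels, chloride channels and anoctamins, and GABA, glutamate, glycine and nicotinic receptors) in the name tables of the study, with a mean raw count of at least 20 over 18 rats. There were 41 such transcripts of 40 symbols among 67 transcripts with these stems, 3837 transcripts with a name and 41078 transcripts in the count table. The members just above the count minimum were Grin2d (mean 22.3 counts), Kcna7 (29.4) and Scnn1b (29.6), and those just below it were Trpm1 (11.9), Cacng6 (11.1) and Scnn1g (8.83).

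The rats were Sprague Dawley animals of about 300 g, each group with 3 labelled male and 3 labelled female. The 6 naive rats had no procedure. The 6 sham rats had anesthesia, a skin incision at the left knee and sutures. The 6 TKA rats had a complete total knee arthroplasty (TKA), the replacement of the joint by an implant, on the left side under anesthesia. Sham and TKA ganglia were taken 24 h after the operation, and all samples came from left levels L3 and L4 as whole ganglia, so neurons, glia, blood cells and attached tissue were sequenced together. The rats carried no transgene or deletion.

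The names came from tables that were sorted by a test on these same rats. The sheet for TKA against sham named 24 members, the sheet for TKA against naive named 3, of which Kcna6 stood on that sheet alone, and 16 stood only on the sheet for sham against naive. In that last sheet all but Kcne5 of the 16 had tied values in the column used for sorting. Values of a member in the contrast whose sheet named it are therefore given as a description. Comparisons of TKA with sham and of TKA with naive share the 6 TKA rats.

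Voltage-gated potassium channels repolarize neurons after each action potential and set how often they can fire. Sodium and calcium channels of the Scn and Cacna families carry the inward currents of the action potential and of transmitter release. Acid-sensing (ASIC), ATP-gated (P2X), Piezo and TRP channels turn acid, ATP, stretch, temperature and chemicals into current at the nerve endings, and GABA and glutamate receptors on sensory neurons adjust the signal they pass to the spinal cord.

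Total counts per rat ranged from 20230562 to 29343899, and members took 0.140% to 0.226% of them. Levels are CPM (counts scaled to library size after TMM normalization), and since the counts are not divided by transcript length they are compared between rats and not between transcripts. The neurofilament transcripts Nefl, Nefm and Nefh, which mark large sensory neurons, had a mean log2 CPM of 13.46 to 13.92 in the 12 naive and sham rats, 12.48 in TKA rat 2 and 12.78 in TKA rat 6. The 5 named of 15 sensory neuron markers summed to 34410 to 47100 CPM in naive and sham rats and to 17150 to 39730 CPM in TKA rats. Nearly all of that sum is neurofilament, and the other 2 markers had log2 fold-changes above 0 against naive rats (Calca 0.10 and Ntrk3 0.50). Calca nevertheless had 68.9 CPM in TKA rat 2, against 426 to 628 CPM in naive and sham rats and 699 CPM in TKA rat 1. Ntrk3 was low in all rats, with at most 5.14 CPM. TKA rat 2 also stood apart in other cell types. Its 10 named Schwann cell markers of a list of 12 summed to 90450 CPM, against at most 17890 CPM in naive and sham rats, and its 5 named muscle markers of a list of 10 summed to 8502 CPM, against at most 615 CPM. The 6 named macrophage markers of 10 ran from 77.9 to 373 CPM in naive and sham rats and from 191 to 756 CPM in TKA rats, and the 3 named satellite glia markers of 6 ran from 272 to 542 CPM and from 372 to 1688 CPM. Glul carries most of that last sum (0.99 on the log2 scale against naive rats), while Fabp7 and Apoe had -0.18 and -0.85. The part of these cell types in the results below was not tested, and in whole ganglia fewer cells of a type and less RNA per cell cannot be told apart. The library labelled female TKA rat 4 held 3472 counts on 3 transcripts seen in the labelled males of the naive and sham groups, which had at most 1 count in the other labelled females. It held 0 counts on a transcript that had at least 350 in each other labelled female and 0 in the labelled males.

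No channel or receptor transcript was called between TKA rats and either other group with edgeR, and among these named members more fold-changes lay below 0 than above it. In TKA against sham, 29 of 41 members had a log2 fold-change below 0 (48.5% of all transcripts tested), 11 were lower at an unadjusted p under 0.05 (2.90% of all) and 5 were higher (5.94% of all). None was called with an adjusted p under 0.05 together with at least a 1.5-fold difference (0% of 15320 transcripts tested with edgeR). In TKA against naive, 27 of 40 members were below 0 (47.8% of all), 14 were lower at an unadjusted p under 0.05 (5.48% of all) and 6 were higher (11.7% of all). Again 0 of 40 were called with edgeR, where 0.0857% of 15170 transcripts were. In that comparison DESeq2 without a prior called 3 members among 450 transcripts in all, DESeq2 with a prior 1 among 355 and limma voom 1 among 123. The median log2 fold-change of the members was -0.25 against sham and -0.29 against naive, beside medians of 0.01 and 0.02 over all transcripts tested. Most of these names came from the sorted sheets, so the lower counts are a description of the set and not evidence about channels as a class.

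**Figure D1:**
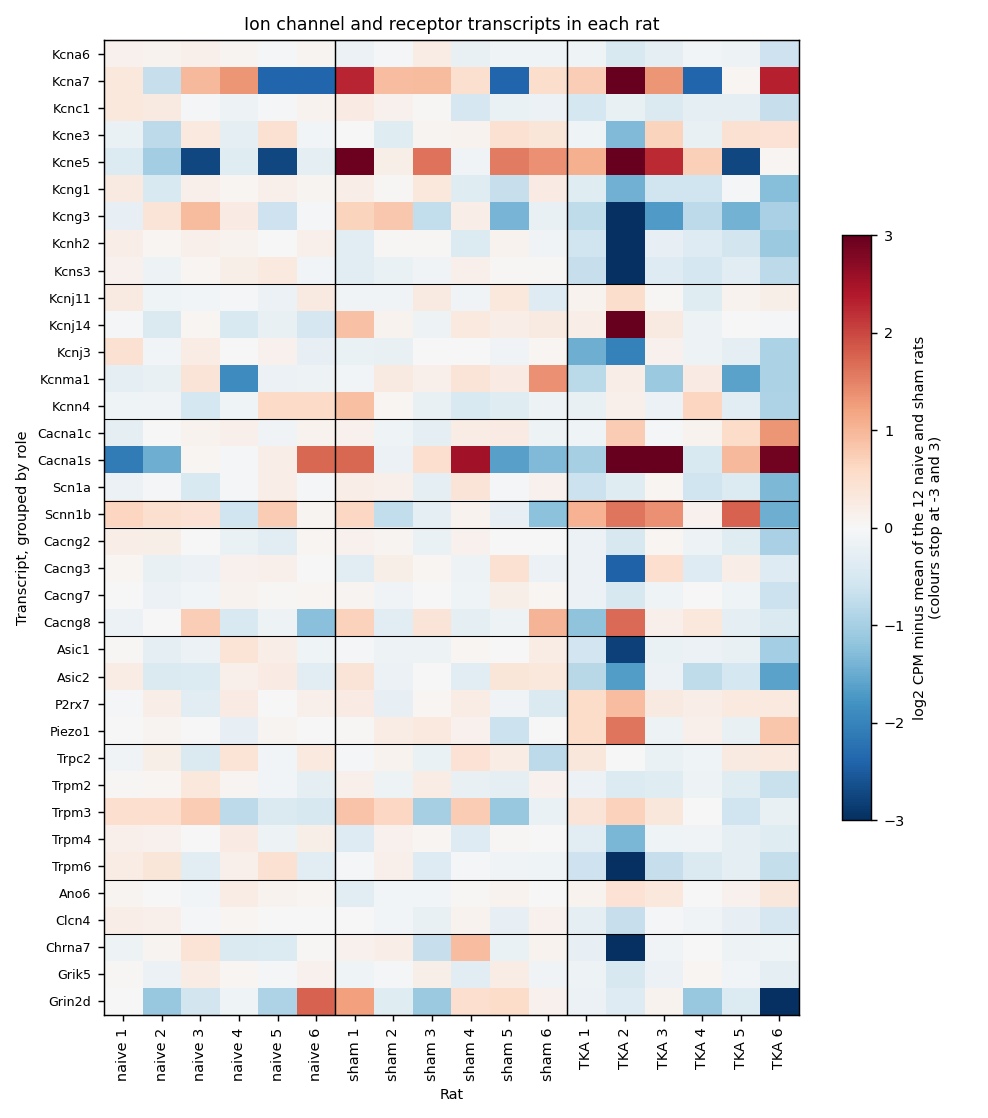
Log2 CPM of 36 channel or receptor transcripts (rows, grouped by role) in each rat (columns), minus the mean of the 12 naive and sham rats, with blue for lower and red for higher and colours stopping at -3 and 3. The column of TKA rat 2 holds many of the darkest cells, with blue and red side by side, and 18 of the 36 there lay below all 12 naive and sham rats and 11 lay above them.

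The 12 voltage-gated potassium transcripts held the 5 members whose TKA rats all lay below all naive rats. Of the 11 that could be tested against naive rats, 9 were lower and 2 higher, and 10 of 12 were lower against sham rats. Kcng3, a silent subunit that joins other potassium channel subunits and changes their gating, had 2.22, 3.74 and 6.76 CPM as the lowest, median and highest naive rat, 1.26, 3.49 and 6.13 CPM in sham rats, and 0.102, 1.48 and 2.0 CPM in TKA rats. The 6 TKA rats lay below all 6 naive rats and overlapped the sham rats, with a log2 fold-change of -1.56 ± 0.49 (SE) against naive and -1.45 ± 0.55 against sham. Kcnh2 encodes the ERG potassium channel, which also repolarizes the heart. It had 78.3, 84.9 and 89.5 CPM in naive rats, 58.8, 75.8 and 83.7 CPM in sham rats and 9.77, 52.2 and 65.7 CPM in TKA rats. All TKA rats were again below all naive rats, and the log2 fold-change was -0.87 ± 0.31 against naive and -0.66 ± 0.32 against sham.

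Kcns3, another silent subunit, had 122, 144 and 167 CPM in naive rats, 107, 131 and 151 CPM in sham rats and 7.69, 88.5 and 109 CPM in TKA rats. The naive and TKA rats did not overlap (log2 fold-change -0.85 ± 0.40), and the lowest value was that of TKA rat 2. Kcnc1 encodes a Kv3 channel that lets neurons fire fast. It had 75.2, 86.0 and 104.9 CPM in naive rats, 59.3, 79.7 and 99.4 CPM in sham rats and 52.0, 64.7 and 71.6 CPM in TKA rats, a log2 fold-change of -0.48 ± 0.11 against naive and -0.34 ± 0.13 against sham. In Kcnc1 TKA rat 2 was the highest TKA rat, and no TKA rat reached the lowest naive rat. Its unadjusted p of 0.000769 against naive rats was the lowest of the members, with an adjusted p of 0.115 in edgeR, but the sheet of that contrast had named it. Kcna6, a Kv1 delayed rectifier, had 274, 303 and 313 CPM in naive rats, 242, 260.1 and 330.3 CPM in sham rats and 186, 243 and 268 CPM in TKA rats. It was lower in every TKA rat than in every naive rat, by -0.34 ± 0.10 on the log2 scale, and overlapped the sham rats.

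These 5 members without overlap stand beside 1.42% of all transcripts, and no member lay wholly above the naive rats. Kcng3, Kcnc1 and Kcna6 had been named by the sheet of that contrast. Kcnh2 and Kcns3 had been named by the TKA against sham sheet, which used the same TKA rats. Against sham rats 2 members, Asic1 among them, were without overlap, beside 0.352% of all transcripts, and both had been named by the sheet of that contrast. These counts therefore describe a selected set and are not evidence of an excess. For 4 of these 7 transcripts the RefSeq table of promoter windows (build GRCr8) held a single window, and the 250 bases before the gene's start are shown 5′ to 3′ on the gene's strand because each of these transcripts lay below all naive or all sham rats in the 6 TKA rats. Capitals mark GGGCGG or its reverse complement, the GC box bound by Sp factors. RefSeq starts need not be those of the counted Ensembl transcripts, whose counts rest on the rn6 build.
Kcna6, chr4:161262353-161262602, minus strand: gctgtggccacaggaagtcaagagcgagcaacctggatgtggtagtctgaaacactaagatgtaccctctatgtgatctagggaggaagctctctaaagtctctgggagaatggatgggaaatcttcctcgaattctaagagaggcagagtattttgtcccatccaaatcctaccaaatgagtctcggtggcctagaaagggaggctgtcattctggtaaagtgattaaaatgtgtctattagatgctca
Kcnc1, chr1:106038997-106039246, plus strand: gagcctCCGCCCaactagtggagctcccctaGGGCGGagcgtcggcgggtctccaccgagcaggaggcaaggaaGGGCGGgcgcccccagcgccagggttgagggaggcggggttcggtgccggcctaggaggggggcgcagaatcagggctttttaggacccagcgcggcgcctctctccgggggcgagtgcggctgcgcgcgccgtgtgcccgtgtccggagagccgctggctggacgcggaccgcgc
Kcng3, chr6:16803592-16803841, plus strand: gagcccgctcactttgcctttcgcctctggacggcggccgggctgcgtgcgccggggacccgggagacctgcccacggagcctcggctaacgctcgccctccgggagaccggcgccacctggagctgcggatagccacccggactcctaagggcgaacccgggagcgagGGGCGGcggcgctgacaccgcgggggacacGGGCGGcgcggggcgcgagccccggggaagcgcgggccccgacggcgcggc
Asic1, chr7:132678457-132678706, plus strand: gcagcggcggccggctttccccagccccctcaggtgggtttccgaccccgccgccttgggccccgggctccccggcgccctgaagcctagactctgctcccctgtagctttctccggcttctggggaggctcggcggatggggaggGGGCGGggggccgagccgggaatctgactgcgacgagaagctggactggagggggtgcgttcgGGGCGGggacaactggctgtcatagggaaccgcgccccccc

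Kcnc1 held 3 GC boxes, Kcng3 and Asic1 held 2 each and the Kcna6 window held 0. The windows of Kcnc1, Kcng3 and Asic1 were 74.4%, 78.4% and 72.8% G or C, against 45.6% for Kcna6 and a median of 51.2% over 33469 windows. Windows were found for 27 of 40 member symbols, 32 windows in all, so some symbols had several windows. Of these windows 16 (50%) held a GC box, beside 30.5% of all windows. The letters of the GC box are all G or C, and the median for members was 60.4% G or C, above the 51.2% for all. Whether the share with a GC box differs from that of other windows of like G and C content was not tested. On both strands, TATAAA stood in 3 member windows (9.38%, beside 12.9% of all), CACGTG in 3 (9.38%, beside 5.59%), and TGACGTCA and TGANTCA in 0 (beside 1.59% and 6.34%). None of these motifs contains the letters of another. Kcns3 had 2 different windows, and Kcnh2 had none.

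**Figure D2:**
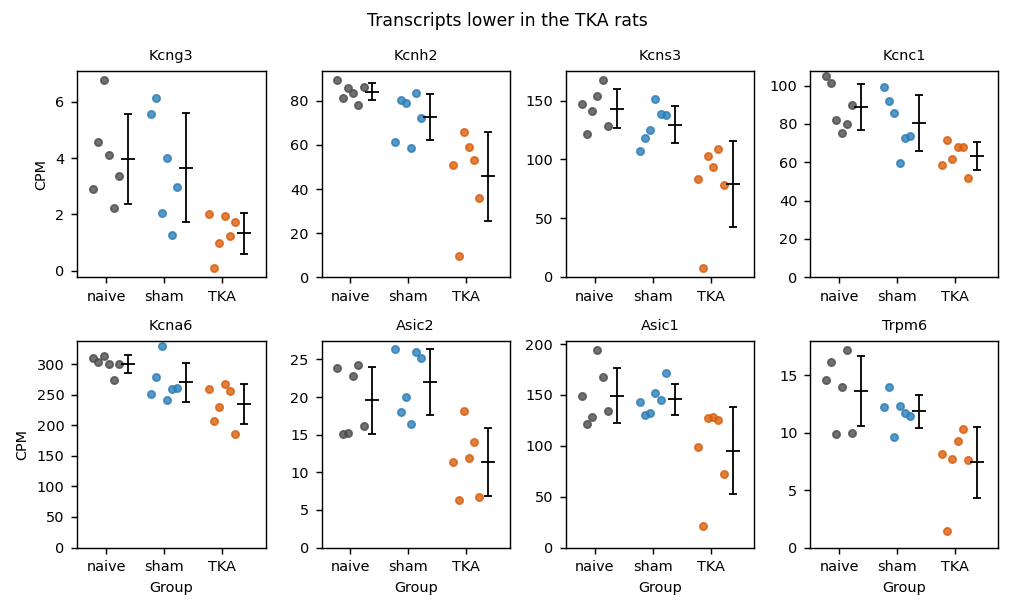
CPM in each rat (points) of 8 transcripts by group, with the group mean and SD as a black bar (n = 6). In Kcng3, Kcnh2, Kcns3, Kcnc1 and Kcna6 the highest TKA rat lies below the lowest naive rat, and in Asic1 below the lowest sham rat.

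Kcng1, a further silent subunit, had 15.5, 27.9 and 41.4 CPM in TKA rats and 30.6, 45.6 and 51.0 CPM in naive rats, with a log2 fold-change of -0.68 ± 0.22. Kcne3, an accessory subunit, had 0.17 ± 0.32.

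Among 5 inward rectifier and calcium-activated potassium transcripts, 3 were lower and 2 higher in TKA than in naive rats. Kcnma1, the BK channel opened by calcium and voltage, had 0.365, 1.37 and 2.09 CPM in naive rats, 1.49, 1.92 and 4.27 CPM in sham rats and 0.463, 0.824 and 1.91 CPM in TKA rats. Its distance from sham rats (-1.03 ± 0.43) was larger than that from naive rats (-0.26 ± 0.47), whose lowest rat was below every TKA rat. Kcnj3, the GIRK1 channel that G proteins open, had 22.1, 27.1 and 35.8 CPM in naive rats and 6.31, 17.5 and 28.5 CPM in TKA rats (-0.69 ± 0.30). Kcnj11, the pore of the ATP-sensitive potassium channel, had 0.10 ± 0.15 and Kcnn4, a calcium-activated channel, -0.16 ± 0.31.

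Kcnj14, an inward rectifier, was among the transcripts with a large share of their counts in a single rat. It had 8.39, 9.48 and 12.5 CPM in naive rats, 10.8, 14.1 and 22.1 CPM in sham rats and 10.7, 12.8 and 109 CPM in TKA rats, the last in TKA rat 2, which held 30.4% of the counts of all 18 rats. Cacna1s encodes the calcium channel that couples excitation to contraction in skeletal muscle. It had 0.345, 1.76 and 6.0 CPM in naive rats, 0.506, 2.03 and 10.5 CPM in sham rats and 0.833, 8.50 and 120 CPM in TKA rats, with 58.6% of its counts in TKA rat 2. Its log2 fold-change was 3.68 ± 1.15 against naive and 2.88 ± 1.16 against sham with all rats, and 1.77 and 0.96 without that rat. Kcna7, a Kv1 channel known from muscle, had 0, 0.333 and 1.05 CPM in naive rats and 0, 0.665 and 2.12 CPM in sham rats. In TKA rats it had 0, 0.852 and 13.2 CPM, the last in TKA rat 2, which held 49.0% of its counts. Kcna7 had 0 counts in 4 rats, which allows up to 0.127 to 0.146 CPM in those libraries by counting error. Kcne5, an accessory subunit, had 0, 0.268 and 0.390 CPM in naive rats and 0.449, 1.51 and 4.33 CPM in sham rats. In TKA rats it had 0, 0.993 and 8.04 CPM, with 29% of its counts in TKA rat 2, and it had 0 counts in 3 of the 18 rats. All sham rats lay above all naive rats, with at most 8 counts in naive rats and 10 in the lowest sham rat. The sheet of that contrast had named Kcne5, and 0.0462% of the transcripts tested there were without overlap in this direction. Kcne5 was not tested against naive rats with edgeR because it did not pass the filter on low counts. Against naive rats the log2 fold-change was 1.54 ± 0.58 for Kcnj14 and 2.80 ± 1.24 for Kcna7, and 0.32 and 1.03 without TKA rat 2. All 4 had their highest value in the library that held 5877 CPM of the muscle actin Acta1, against at most 398 CPM in naive and sham rats. The same library had the highest Schwann cell marker sum. TKA rats 3 and 6 held 647.5 and 631.2 CPM of Acta1. They had 16.2 and 13.5 CPM of Cacna1s, 14.3 and 11.3 of Kcnj14, 1.04 and 2.19 of Kcna7 and 2.63 and 0.516 of Kcne5. The part of any tissue in these values was not tested.

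**Figure D3:**
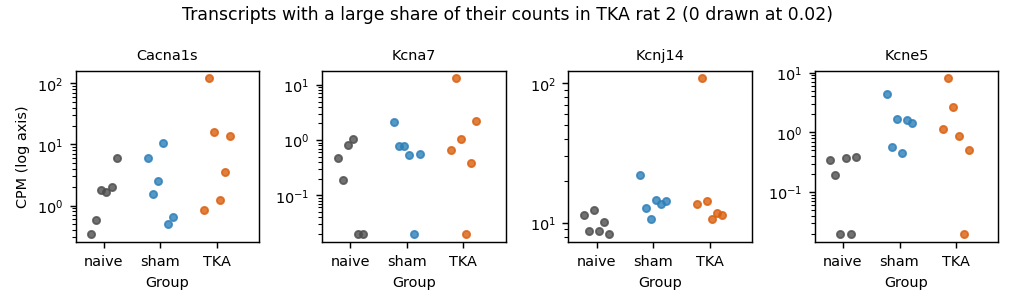
CPM in each rat (points, log axis) of the 4 transcripts with the largest share of their counts in a single rat, with counts of 0 drawn at 0.02. The highest point of each panel is TKA rat 2.

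Cacna1c, a calcium channel of neurons, heart and smooth muscle, had 14.9, 18.6 and 19.9 CPM in naive rats, 14.8, 18.2 and 21.2 CPM in sham rats and 16.4, 22.9 and 45.3 CPM in TKA rats (0.54 ± 0.23 against naive). It was highest in TKA rat 6, and without TKA rats 2 and 6 the log2 fold-change was 0.15. Scn1a, the Nav1.1 sodium channel, had a log2 fold-change of -0.59 ± 0.21 against sham and -0.40 ± 0.20 against naive. Scnn1b, the beta subunit of the epithelial sodium channel, had 0.548, 1.22 and 1.53 CPM in naive rats, 0.322, 0.707 and 1.39 CPM in sham rats and 0.258, 2.13 and 3.20 CPM in TKA rats. Both the lowest and the highest value of Scnn1b were in TKA rats. The Cacng genes encode partners of calcium channels and of AMPA receptors. Cacng2 and Cacng7 had -0.29 ± 0.15 and -0.22 ± 0.11 against naive, Cacng3 -0.20 ± 0.33 and Cacng8 0.48 ± 0.47.

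Among the acid, ATP and mechanical sensors the 2 Asic transcripts were lower and P2rx7 and Piezo1 higher. Asic1, a proton-gated sodium channel, had 122, 142 and 194 CPM in naive rats, 130.5, 144 and 171 CPM in sham rats and 20.8, 112 and 128 CPM in TKA rats. All TKA rats were below all sham rats, and the lowest was TKA rat 2. Asic2, a second proton-gated subunit, had 15.1, 19.5 and 24.3 CPM in naive rats, 16.4, 22.6 and 26.4 CPM in sham rats and 6.31, 11.6 and 18.1 CPM in TKA rats, a log2 fold-change of -0.94 ± 0.25 against sham and -0.77 ± 0.25 against naive. P2rx7, the ATP receptor of macrophages and glia, had 8.81, 11.7 and 13.0 CPM in naive rats, 8.09, 10.8 and 13.0 CPM in sham rats and 12.7, 13.4 and 21.0 CPM in TKA rats (0.48 ± 0.18 against sham). Piezo1, a channel opened by stretch, had 18.8, 22.2 and 23.6 CPM in naive rats, 14.2, 23.5 and 27.3 CPM in sham rats and 19.1, 28.6 and 67.6 CPM in TKA rats. Its distance from naive rats was 0.64 ± 0.27 with all rats and 0.13 without TKA rats 2 and 6. The 6 named macrophage markers had log2 fold-changes of 0.74 to 1.27 against naive rats, where P2rx7 had 0.41 ± 0.16. These markers, P2rx7 and Piezo1 all had their highest value in TKA rat 2. The part of macrophages in the values of P2rx7 and Piezo1 was not tested.

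Of 5 TRP transcripts, 3 were lower at an unadjusted p under 0.05 against naive rats (edgeR), beside 5.48% of all transcripts. Of these, Trpm6 and Trpm2 had been named by the TKA against sham sheet, which used the same TKA rats, so this is a description. Trpm6, a channel for magnesium, had 9.92, 14.3 and 17.2 CPM in naive rats, 9.59, 12 and 14 CPM in sham rats and 1.43, 7.95 and 10.3 CPM in TKA rats (-0.87 ± 0.34). Trpm2, opened by oxidative stress, had 28.9, 36.9 and 44.1 CPM in naive rats and 22.4, 27.6 and 32.0 CPM in TKA rats (-0.36 ± 0.12). Trpm4, a cation channel opened by calcium, had 43.8, 53.4 and 57.5 CPM in naive rats, 37.2, 49.1 and 53.2 CPM in sham rats and 18.7, 39.1 and 45.2 CPM in TKA rats (-0.46 ± 0.17). Trpm3, a heat sensor, and Trpc2, a pheromone channel that is known as a vomeronasal gene, both had 0.05 against naive (± 0.28 and ± 0.22).

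Ano6, a scramblase and ion channel of cell membranes, had 52.5, 58.4 and 64.9 CPM in naive rats, 43.6, 53.9 and 59.7 CPM in sham rats and 55.5, 65.1 and 75.4 CPM in TKA rats (0.30 ± 0.11 against sham and 0.18 ± 0.10 against naive). Clcn4, a chloride and proton exchanger of endosomes, had -0.34 ± 0.11 against naive. The 5 transmitter-gated transcripts were all below 0 in both comparisons. Chrna7, a nicotinic receptor, had -0.30 ± 0.36 against naive, with 2.70 CPM in TKA rat 2 and a lowest value of 14.1 CPM in the naive and sham rats. The glutamate receptor transcripts Grik5 and Grin2d had -0.21 ± 0.10 and -0.84 ± 0.68.

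The 16 members that only the sham against naive sheet named are described here in the comparisons with TKA rats. Absence from the sheets sorted by those contrasts selects against low p values in them. The sheet that named these members also used the same sham and naive rats, so the counts are a description and not a test. Against sham rats 10 were lower and 6 higher, 0 had an unadjusted p under 0.05, and the adjusted p in edgeR ran from 0.628 to 0.993. Against naive rats 15 were tested, 8 lower and 7 higher, with adjusted p values of 0.207 to 0.939. At an unadjusted p under 0.05, Trpm4 and Grik5 were lower and Kcnj14 and Kcna7 higher, 4 of 15 beside 17.2% of all transcripts in that comparison. Their median log2 fold-change was -0.06 against sham and -0.12 against naive.

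The low values of TKA rat 2 were not equal across members. Against the mean of the naive and sham rats, its log2 CPM differed by -4.23 in Kcng3, -4.12 in Kcns3, -3.06 in Trpm6, -3.04 in Chrna7 and -2.98 in Kcnh2. The value of Kcng3 rests on 2 counts in that rat and depends on the prior count. In Kcna6 and Kcnc1 the distance was -0.46 and -0.22, and in the neurofilament mean -1.24. In 16 of 41 members the distance lay below that of the neurofilament mean. TKA rat 2 was the lowest of 18 rats in 18 members and the highest in 10, and TKA rat 6 was the lowest in 10. Below all 12 naive and sham rats lay 22 of 41 members in TKA rat 2 and 23 in TKA rat 6, beside 33.3% and 17.8% of the 14097 transcripts with the same minimum count. The numbers were 12 in TKA rat 1 (8.68% of all), 7 in TKA rat 3 (8.52%), 9 in TKA rat 4 (7.6%) and 9 in TKA rat 5 (7.05%). Above all 12 lay 12 members in TKA rat 2 (28% of all), 6 in TKA rat 6 (18.8%), 6 in TKA rat 3 (9.67%), 3 in TKA rat 1 (8.93%), 3 in TKA rat 5 (7.28%) and 0 in TKA rat 4 (8.7%).

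Most members were also below 0 when these libraries were left out. The remaining TKA rats and the controls were still among those used to sort the sheets that named the members. The counts below therefore describe a selected set and do not test it. Without TKA rats 2 and 6, 29 of 40 members were below 0 against naive rats (49.3% of all transcripts) and 15 were lower at an unadjusted p under 0.05 (5.79% of all), while 0 were higher at that level (6.86% of all). Against sham rats 32 of 41 were then below 0 (53.1% of all) and 12 were lower at an unadjusted p under 0.05 (3.33% of all). The log2 fold-change against naive was then -0.55 for Kcnh2, -0.55 for Kcns3, -0.47 for Kcnc1, -1.36 for Kcng3 and -0.24 for Kcna6. Without TKA rat 2 alone, Kcnh2 (-0.66, adjusted p = 0.016 in edgeR) and Kcns3 (-0.61, adjusted p = 0.012) passed both thresholds, beside 0.732% of all transcripts. Both had been named by the TKA against sham sheet, which used the same TKA rats. With the neurofilament level as a covariate, the log2 fold-change was -0.11 for Kcnh2, 0.01 for Kcns3, -0.09 for Asic2 and 0.24 for Asic1. That of Kcnc1 was -0.49 and that of Kcng3 was -1.16. The median over members with that covariate was -0.07, and 27 of 40 were below 0, as many as without it. The neurofilament level was itself lower in TKA rats 1, 2, 5 and 6 (12.48 to 13.27) than in every naive and sham rat (at least 13.46). The covariate therefore overlaps with group, and this fit cannot separate them.

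**Figure D4:**
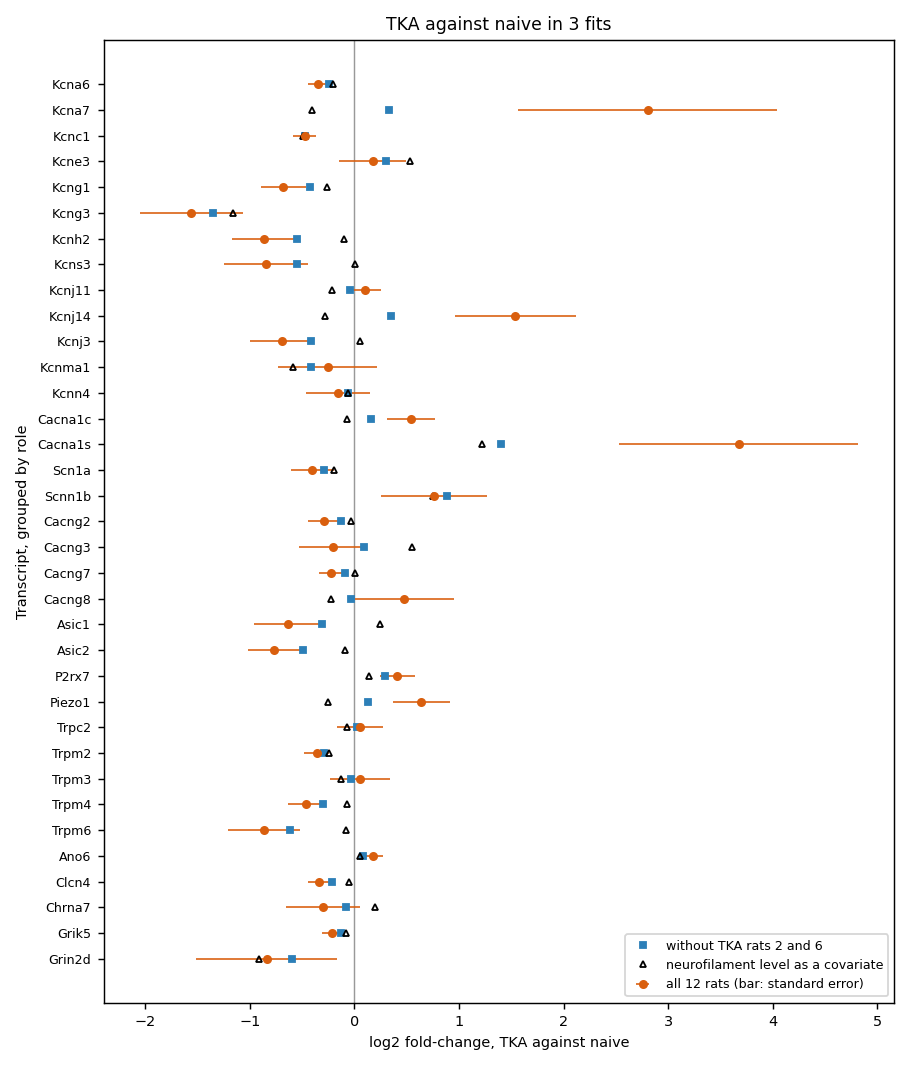
Log2 fold-change of TKA against naive for the plotted members tested, with all 12 rats (orange, bar for the SE), without TKA rats 2 and 6 (blue squares) and with the neurofilament level as a covariate (triangles). Kcnc1 and Kcng3 are among the members with values below 0 in the 3 fits, and Kcnh2, Kcns3 and Trpm6 lie near 0 with the covariate.

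No member was called between sham and naive rats. Kcne5, whose sham rats all lay above its naive rats, did not pass the edgeR filter and was not among those tested. Of 40 members tested, 22 were lower (48.3% of all transcripts) and 18 higher in sham rats, 0 were called with edgeR (0% of 15153) and none with the alternatives, and the adjusted p was 0.998 for all. At an unadjusted p under 0.05, Kcnj14 was higher (0.57 ± 0.18) and Kcnh2 lower (-0.20 ± 0.09), beside 4.12% of all transcripts. In Kcnh2 the medians of naive, sham and TKA rats were 84.9, 75.8 and 52.2 CPM, and neighbours in this order overlapped.

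Sex was not used in naming the members and could be tested over the 18 rats with group as a covariate. None of 41 was called with edgeR (0.0312% of 16048 transcripts), and 2 had an unadjusted p under 0.05 (8.81% of all), both higher in labelled males. Trpm3, which had the lowest p for sex of the 41 members, had a log2 fold-change of 0.74 ± 0.24 (adjusted p = 0.419 in edgeR). Its labelled males had 70.5, 71.1 and 84.4 CPM in naive rats and its labelled females 28.9, 35.6 and 36.9 CPM. In sham rats the males had 24.7, 76.5 and 90.5 CPM and the females 22.8, 43.2 and 85.1 CPM, so that 2 males and 2 females lay in the range of the other sex. In TKA rats the males had 63.1, 65.5 and 80.3 CPM and the females 32.9, 42.7 and 50 CPM. The last was TKA rat 4, the library labelled female that held counts on the transcripts of labelled males. How many of all transcripts separate the labelled sexes within a group was not counted, so these values are a description. Kcnc1 was higher in males by 0.22 ± 0.09 (adjusted p = 0.487 in edgeR), and Kcnj14 had the next lowest p, with 0.78 ± 0.39, or 0.21 without TKA rat 2. Without TKA rat 4 the values of Trpm3 and Kcnc1 were 0.78 and 0.25. The interaction of sex and surgery, tested for TKA against sham, gave 0 calls with edgeR among 41 members (0% of 17049) and 0 members with an unadjusted p under 0.05 (2.84% of all).

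**Figure D5:**
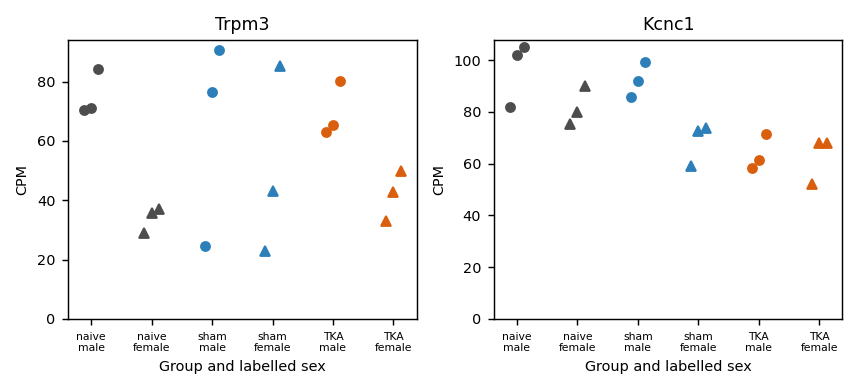
CPM of Trpm3 and Kcnc1 in each rat by group and labelled sex (circles for males, triangles for females, 3 rats each). In naive and TKA rats the Trpm3 values of labelled males all lie above those of labelled females, and in sham rats they overlap.

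Across the 18 rats, the other members whose log2 CPM ranked most like that of Kcnc1 were Kcnh2 (Spearman's rho 0.728), Kcna6 (0.717) and Kcng1 (0.628). Within the 12 naive and sham rats the same values were 0.357, 0.503 and 0.294. Kcnc1 was taken for its lowest p against naive rats, and all of these transcripts were lower in TKA rats, so the values over 18 rats include that group difference. The rats also share library depth and cell makeup, so these are descriptions. Of 56 other channels and channel partners listed beside the members, 17 were named, and 9 were higher and 8 lower against sham rats, with 0 called. Lrfn2, an adhesion protein of synapses, had -1.18 and Best1, a calcium-activated anion channel, had 1.19 on the log2 scale against naive rats. In Lrfn2 all TKA rats lay below the naive and sham rats. Of all transcripts, 1.42% lay lower without overlap against naive rats and 0.352% against sham rats. The study lists both Lrfn2 and Best1 among the transcripts that differ between TKA and sham rats, so their values are a description.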

How the data were processed

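RNA-seq counts of 18 rats, 6 per group, were used, and labels gave each rat's group, number and sex. The authors used HISAT2 on rn6, counted reads per Ensembl transcript with featureCounts, and deposited those counts as they were. Versions, annotation release and strand settings are not given in the sources used here, so reads shared by isoforms or overlapping genes leave single transcripts uncertain. Names came from the name tables of the study, of which a shortened copy was used, and only names were taken from them. Fold changes and p-values in those tables were not used.

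All transcripts were fitted with edgeR 4.0.16 in R 4.3.3 (filterByExpr, TMM, quasi-likelihood F test, Benjamini-Hochberg over all transcripts tested), each pair of groups on its 12 rats alone. Sex was tested over 18 rats with group as a covariate, and the interaction on TKA and sham rats. Calls needed an adjusted p under 0.05 together with at least a 1.5-fold difference. A standard error was obtained as the log2 fold-change over the root of F. Log2 CPM used a prior count of 2. DESeq2 1.42.0 (prior on or off) was among the alternatives, with limma 3.58.1 voom with quality weights, RLE scaling, other count filters, sex, rat number or neurofilament level in the model, all groups in a single fit, and rats left out. The fits were tested on simulated data.

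The members, the gene lists and the rule for naming were chosen with earlier results of these data known. Members are described by role, and results for some of them are not reported here. The lowest, median and highest rat of each group are given for members on the TKA against naive sheet, those on the TKA against sham sheet with a positive or one of the 8 most negative log2 fold-changes, the 3 with the lowest p for sex, the 3 with the lowest p against naive rats among those named by the sham against naive sheet alone, and those with the largest share of counts in a rat. For some other members the same values are given, chosen after they were seen, as were the 4 promoters shown. Total counts of 20230562 to 29343899 per rat limit precision mainly for the members near the count minimum, and limits for a count of 0 (3 counts) cover counting error only.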

Additional observations from a re-analysis of the deposited data

Results flagged for a closer look

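In groups of 6 rats, 15 of 108 sets of log2 CPM values, for the 36 member transcripts described by name, held a lowest or highest rat whose gap to the next rat took a share of the range above Dixon's 95% critical value for 6 samples. Chance flags about 1 in 20 groups, or 5.4 of 108, and members share the same libraries.

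TKA rat 2 was set apart in 9 of the 15. Its log2 CPM was the lowest of the TKA rats in Asic1 (4.39, next rat 6.17), Cacng3 (1.98, next 4.01) and Chrna7 (1.48, next 4.28). It was also the lowest in Kcng3 (-2.40, next 0.12), Kcnh2 (3.30, next 5.18), Kcns3 (2.96, next 6.30), Trpm4 (4.23, next 5.23) and Trpm6 (0.60, next 2.94). In Kcnj14 it was the highest (6.76, next 3.85). This is the library with the highest Schwann cell and muscle marker levels and the lowest neurofilament level, and the part of these in its channel values was not tested.

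The other 6 lay in naive and sham rats and were spread over 5 libraries. Naive rat 5 was low in Kcna6 (8.10, next 8.23), naive rat 2 in Kcng1 (4.94, next 5.46), and naive rat 4 in Kcnma1 (-1.14, next 0.47) and Piezo1 (4.24, next 4.47). Sham rat 5 was low in Piezo1 (3.84, next 4.49) and sham rat 6 high in Kcnma1 (2.12, next 1.13).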

How the results depend on the processing

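The number of members called was 0 in each comparison and stayed at 0 under most alternatives. In TKA against naive rats it was 3 with DESeq2 without a prior (Cacna1s, Kcne5 and Kcng3), 1 with DESeq2 with a prior (Kcng3), 1 with limma voom (Kcnh2), where these fits called 450, 355 and 123 transcripts in all against 13 in edgeR, and 0 to 2 when a rat was left out, the 2 being Kcnh2 and Kcns3 without TKA rat 2. In the other comparisons leaving out a rat gave 0 to 0. Without a count minimum the set held 67 transcripts, and with a mean of at least 50 it held 36. Rats with the same number correlated at -0.05 to 0.219 in their deviations from the group means, so the number was taken as a name only; with the rat number as a replicate block, 0 members were called in each comparison, and over all transcripts the calls in TKA against naive rats went from 13 to 1. Depth limits the members with few counts most, such as Kcna7, Kcne5 and Grin2d.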
